A study of Saccharomyces cerevisiae with 2 samples.

Results

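The 7 genes described here encode carriers of phosphate, or of compounds that contain it, in Saccharomyces cerevisiae, together with a small protein that acts on one of them. Carriers of the mitochondrion are not among the 7. They are PHO84, PHO89, PHO87, PHO90, PHO91, GIT1 and SPL2, taken by name from the mRNA rows of a table of 6420 features, of which 5995 are mRNAs. They were chosen by name with their counts in these same libraries known, above all the low counts of PHO84, PHO89 and SPL2 in cdc55Δ, so their changes are given as a description and not as a test. The libraries came from cdc55Δ cells, which lack the Cdc55p regulatory subunit of protein phosphatase 2A, and from wild-type (WT) cells of the same strain. Both were BY4741, a haploid laboratory strain, and were kept still at 30 °C for 6 h in YPD20, a rich medium with a high glucose content. The comparison asks what the loss of Cdc55p changes in the transcripts of cells that begin alcoholic fermentation. How many cdc55Δ clones were used is not given in the sources used here.

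Yeast takes up inorganic phosphate through carriers of high and of low affinity. When phosphate is scarce, the transcription factor Pho4p, with Pho2p, switches on the PHO genes, among them those for the high-affinity carriers. When phosphate is plentiful, the cyclin-dependent kinase Pho85p with its cyclin Pho80p phosphorylates Pho4p and keeps it out of the nucleus, and uptake relies on the low-affinity carriers. The PHO regulon also controls SPL2, whose product binds Pho87p and lowers low-affinity uptake.

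Each strain had 1 library, so every difference below is one between libraries, without replicates to set it against. The counts summed to 30133454 in cdc55Δ and to 33233285 in WT, and the median mRNA was listed at 32.4 RPKM in cdc55Δ and at 32.5 RPKM in WT. RPKM, the count divided by the gene's length in kilobases and by the library's total in units of 1000000 counts, allows levels of different genes to be set side by side, and levels of different genes are compared on that scale only. CDC55 itself had 1 count in cdc55Δ, against 2614 counts in WT, at least 775-fold lower after scaling when 3 counts are taken as the floor. Log2 fold changes are of cdc55Δ over WT after TMM scaling of the counts. All intervals are 95% intervals. They hold for the sampling of reads alone, and the spread between cultures is unknown.

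Both high-affinity carriers and SPL2 were far lower in cdc55Δ, whereas the low-affinity carriers, the vacuolar carrier and the glycerophosphoinositol carrier differed by less than 2-fold. All 7 genes passed a minimum mean of 50 normalized counts, 3 of them were at least 2-fold lower in cdc55Δ and none was at least 2-fold higher. Among all 5705 features that passed the minimum, 1.03% were at least 2-fold lower and 1.91% at least 2-fold higher. Because the genes were picked with these values in view, the comparison of these shares says nothing more about them. The same 3 genes were also at least 4-fold lower, which held for 0.28% of all features. In a bulk culture, less RNA in every cell and fewer cells that express a gene cannot be told apart.

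**Figure D1:**
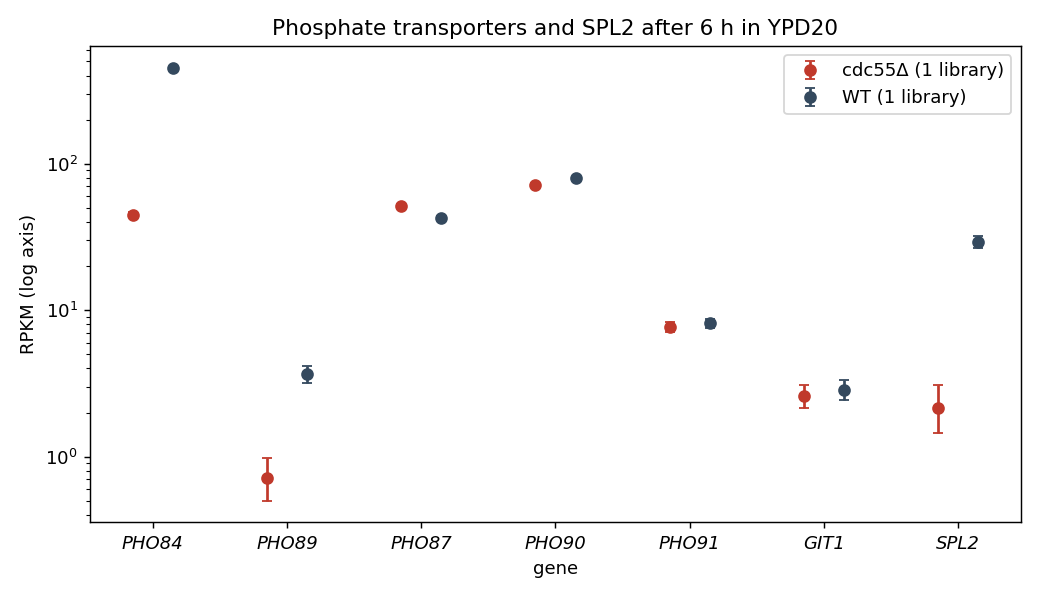
Listed RPKM (log axis) of each gene in the cdc55Δ library (red, left) and the WT library (dark, right), with 95% Poisson intervals of the count behind each value. PHO84, PHO89 and SPL2 lie lower in cdc55Δ, with 44.9 against 448 RPKM for PHO84, while the points of the other 4 genes lie close together.

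PHO84 (YML123C), which encodes the high-affinity symporter of protons and phosphate, lies on the minus strand of chromosome XIII from 24037 to 25800 in the R64 assembly. It had 2389 counts in cdc55Δ and 26248 counts in WT, 0.00793% and 0.0790% of all counts. The log2 fold change was -3.29 (-3.35 to -3.23), a 9.77-fold lower level in cdc55Δ. By RPKM, PHO84 held rank 2324 of the 5995 mRNAs in cdc55Δ and rank 274 in WT. It thus stood among the more abundant mRNAs in the WT library and nearer to the middle of the mRNAs in the cdc55Δ library.

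PHO89 (YBR296C, minus strand of chromosome II from 796798 to 798522), which encodes the high-affinity symporter of sodium and phosphate that works best at alkaline pH, was scarce in both libraries. It had 37 counts and 0.712 RPKM in cdc55Δ, against 209 counts and 3.65 RPKM in WT, a log2 fold change of -2.31 (-2.88 to -1.82). The transcript of PHO84 was 63.1 times as abundant as that of PHO89 per length in cdc55Δ (45.6 to 87.4) and 123 times as abundant in WT (107 to 141). The change of PHO89 was the smaller one, since its log2 fold change exceeded that of PHO84 by more than counting error, with a difference of PHO84 minus PHO89 of -0.96 (-1.47 to -0.41).

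SPL2 (YHR136C, minus strand of chromosome VIII from 374654 to 375100), the shortest of these genes with 447 bases, had the lowest log2 fold change of the 7. It had 29 counts and 2.15 RPKM in cdc55Δ, against 434 counts and 29.2 RPKM in WT, a log2 fold change of -3.71 (-4.33 to -3.19) and a 13.1-fold lower level. Only 3 features that passed the minimum had a lower log2 fold change, and CDC55 was one of them. SPL2 and PHO84 could not be ranked within counting error, with a difference of PHO84 minus SPL2 of 0.45 (-0.10 to 1.04). Per length, SPL2 reached 0.0418 of the level of PHO87, the carrier that its product binds, in cdc55Δ (0.0290 to 0.0603) and 0.686 of it in WT (0.621 to 0.757).

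Bases upstream of these genes were read from the R64 genome, because Pho4p binds the word CACGTG and, more weakly, CACGTT. The first set shown is the part of the PHO84 upstream region where CACGTG lies in close repeat, followed by single matches of other genes with 10 bases on either side. Not all matches are printed: those at PHO84 -880, SPL2 -361 and SPL2 -31 are left out. Positions count back from the start codon, with -1 as the base before it, and each sequence reads 5′ to 3′ on the strand of its gene, which is the minus strand in every case. Capitals mark CACGTG and CACGTT.
PHO84 from -597 to -399 (chrXIII:26199-26397): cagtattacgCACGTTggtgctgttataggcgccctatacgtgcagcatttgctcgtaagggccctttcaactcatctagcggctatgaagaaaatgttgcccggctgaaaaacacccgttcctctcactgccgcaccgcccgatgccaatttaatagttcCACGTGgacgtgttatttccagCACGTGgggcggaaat
PHO89 at -323 (chrII:798830-798855): gacaatgcagCACGTGggagacaaat
SPL2 at -147 (chrVIII:375232-375257): atgatgtacgCACGTGggcgaaagtt
SPL2 at -90 (chrVIII:375175-375200): tctcttttccCACGTGctccgctctc
PHO87 at -132 (chrIII:197302-197327): gatgatttcgCACGTGggaaaagtaa
PHO91 at -201 (chrXIV:651898-651923): ttcggggatcCACGTGatggcttttt
GIT1 at -518 (chrIII:299108-299133): tttcgcggcgCACGTGcatgacggta

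Within 1000 bases before the start codon, CACGTG occurred 3 times upstream of PHO84, at -880, -436 and -414, and 4 times upstream of SPL2, at -361, -147, -90 and -31. PHO89, PHO87, PHO91 and GIT1 had 1 match each, and PHO90 had none. Of 6002 such windows upstream of nuclear coding sequences, 10.8% held CACGTG, 0.267% held it 3 or more times and 0.0333% held it 4 or more times. CACGTT, searched on both strands, was found 2 times each for PHO84 and GIT1, 1 time each for PHO89, PHO87 and SPL2, and in 28.5% of all windows. CACGTG reads the same on both strands, and no match of one word was counted as a match of the other. A match is a description of the sequence and not a binding site. The genes that differed most between the libraries did not have the word to themselves, since PHO87, PHO91 and GIT1 also had it.

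Pho4p binds poorly where a T stands directly before CACGTG on either strand. Such a T was present in 3 of the 11 matches upstream of the 7 genes, at PHO84 -880, SPL2 -361 and PHO91 -201, and in 67.0% of the 743 matches in all windows. Of these 3, only the match of PHO91 is printed above. The longer word GCACGTGGG, picked after the sequences were seen and searched on both strands, occurred upstream of PHO84, PHO89, PHO87 and SPL2. It contains CACGTG, and it was found in 22 of the 6002 windows. Of the 21 genes with this word that passed the count minimum, 3 were at least 2-fold lower in cdc55Δ, namely PHO84, PHO89 and SPL2, and 0 were at least 2-fold higher. The word was picked from sequences that include those of these 3 genes, so their place among the 21 was fixed in advance. No other gene of the 21 was at least 2-fold lower, and the share over all features was 1.03%. The median log2 fold change of the 21 was 0.06. PHO87, with the word at -133, was among the 21.

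**Figure D2:**
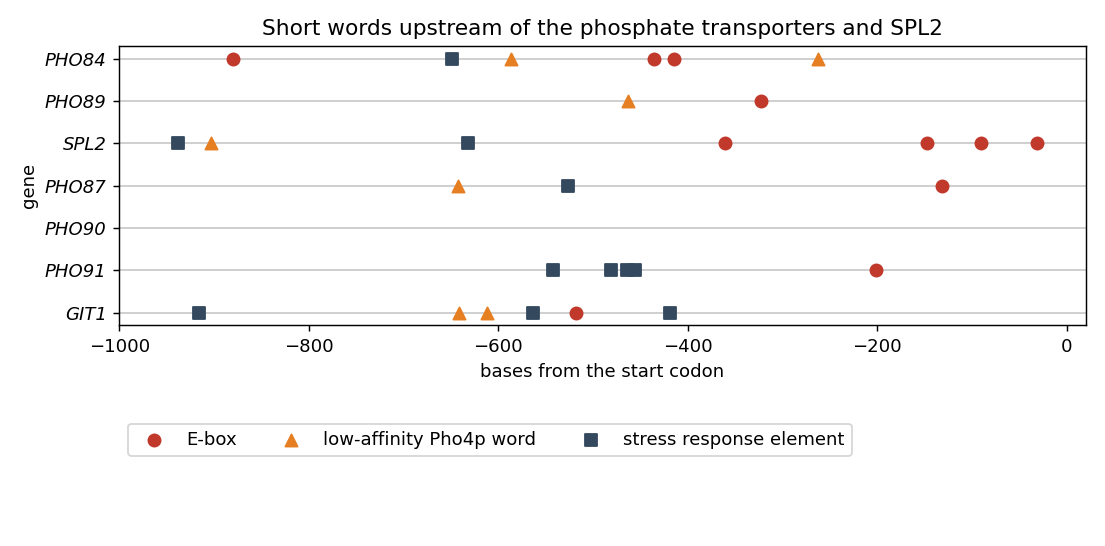
Matches in the 1000 bases before each start codon, by distance from it: CACGTG (red circles, the E-box), CACGTT (orange triangles, the low-affinity Pho4p word) and AGGGG on either strand (dark squares, the stress response element). PHO84, PHO89 and SPL2 are in the upper rows, with 3, 1 and 4 circles, and PHO90 has no match of any kind.

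AGGGG on either strand, the stress response element that Msn2p and Msn4p bind, was counted in the same windows and was found in 55.0% of all of them. PHO91 had 4 matches, GIT1 had 3, SPL2 had 2, and PHO84 and PHO87 had 1 each, while PHO89 and PHO90 had none.

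The low-affinity carriers of the plasma membrane, Pho87p and Pho90p, are close relatives that each carry an SPX domain, a module that senses phosphate through inositol pyrophosphates. PHO87 (YCR037C, minus strand of chromosome III from 194414 to 197185) was the only one of the 7 genes with a higher level in cdc55Δ, with 4300 counts there and 3926 counts in WT, a log2 fold change of 0.30 (0.24 to 0.36). PHO90 (YJL198W, plus strand of chromosome X from 60844 to 63489) had 5714 counts in cdc55Δ and 7008 counts in WT, a log2 fold change of -0.13 (-0.18 to -0.08). The difference of PHO87 minus PHO90 was 0.43 (0.34 to 0.51), beyond counting error. Whether it exceeds the spread between cultures cannot be judged from 1 library per strain. Changes of this size were common, and 7.10% of all features that passed the minimum lay within the interval of PHO87 and 14.9% within that of PHO90.

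Per length, PHO87 stood at 51.5 RPKM in cdc55Δ and 42.6 RPKM in WT, and PHO90 at 71.7 RPKM in cdc55Δ and 79.7 RPKM in WT. PHO90 was thus the more abundant of the pair in both libraries. The sum of both was 123 RPKM in cdc55Δ and 122 RPKM in WT. The longest run of identical bases between their coding sequences is 29 bases, and none of the 100-base stretches of any of the 7 coding sequences occurs elsewhere in the genome.

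PHO91 (YNR013C, minus strand of chromosome XIV from 649028 to 651712) encodes another carrier with an SPX domain, which sits in the vacuole membrane and lets phosphate out to the cytoplasm. It had 623 counts and 7.70 RPKM in cdc55Δ, against 726 counts and 8.14 RPKM in WT, a log2 fold change of -0.05 (-0.21 to 0.10). Its difference from PHO90 was within counting error, at -0.07 (-0.24 to 0.09) for PHO90 minus PHO91. That from PHO87 was not, at 0.35 (0.18 to 0.52) for PHO87 minus PHO91.

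GIT1 (YCR098C, minus strand of chromosome III from 297049 to 298605) encodes the carrier of glycerophosphoinositol and glycerophosphocholine, from which the cell can draw phosphate, and it is known as a gene that phosphate limitation induces. It had 121 counts and 2.58 RPKM in cdc55Δ, against 148 counts and 2.86 RPKM in WT, a log2 fold change of -0.12 (-0.48 to 0.23). The interval is wide enough that 78.5% of all features that passed the minimum lay within it. It does not reach the levels of change seen at PHO84, PHO89 or SPL2, and the difference of PHO89 minus GIT1 was -2.20 (-2.86 to -1.57).

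**Figure D3:**
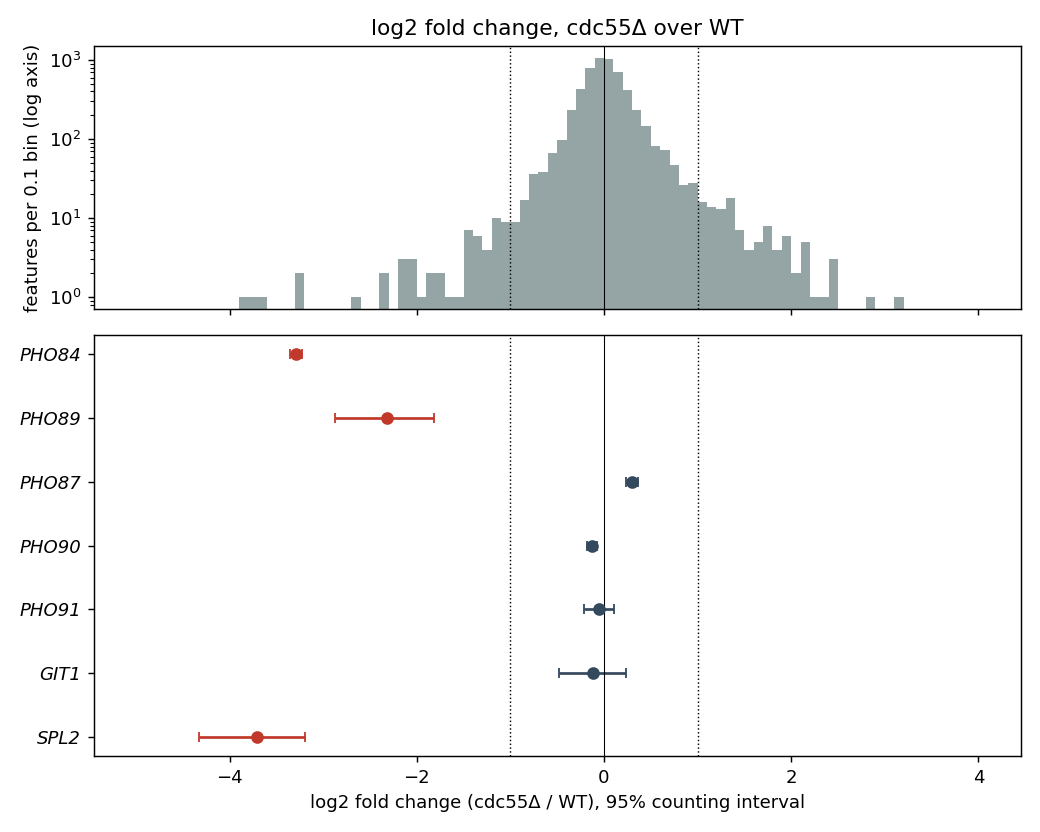
Upper panel, histogram of the log2 fold changes of cdc55Δ over WT of the features that passed the count minimum (log count axis), without CDC55 and a tRNA gene that lie below the plotted range. Lower panel, log2 fold change of each gene with its 95% counting interval; PHO84 at -3.29, PHO89 at -2.31 and SPL2 at -3.71 lie left of the dotted line that marks 2-fold, and the others lie near 0.

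All 21 pairs of the 7 genes were compared by the difference of their log2 fold changes, which does not depend on the scaling of the libraries. Between the genes PHO84, PHO89 and SPL2 and the other 4, all 12 differences had intervals without 0, and they ranged in size from 2.20 to 4.03. Over all pairs, 17 intervals excluded 0 and 4 included it. The 4 were PHO84 with SPL2, and each pair among PHO90, PHO91 and GIT1.

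The order of the transcripts by RPKM was not the same in the libraries. In cdc55Δ it ran from PHO90 over PHO87, PHO84, PHO91, GIT1 and SPL2 to PHO89. In WT it ran from PHO84 over PHO90, PHO87, SPL2, PHO91 and PHO89 to GIT1. Neighbours in these orders had separate counting intervals, other than GIT1 and SPL2 in cdc55Δ and PHO89 and GIT1 in WT. PHO84 therefore held place 3 in cdc55Δ and place 1 in WT.

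Set against the low-affinity carriers within each library, PHO84 was 0.627 times as abundant as PHO90 in cdc55Δ (0.598 to 0.658) and 5.62 times as abundant in WT (5.47 to 5.77). Against PHO87 the ratio was 0.873 in cdc55Δ (0.830 to 0.918) and 10.5 in WT (10.2 to 10.9). The summed RPKM of PHO84 and PHO89 was 0.371 times that of PHO87 and PHO90 in cdc55Δ (0.355 to 0.388) and 3.69 times in WT (3.61 to 3.77). High-affinity transcripts thus made up the smaller group in cdc55Δ and the larger group in WT.

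The transcripts of the 4 inorganic phosphate carriers of the plasma membrane summed to 169 RPKM in cdc55Δ and to 574 RPKM in WT. PHO84 held 26.6% of the sum in cdc55Δ and 78.0% in WT, while PHO87 and PHO90 together held 73.0% in cdc55Δ and 21.3% in WT. PHO89 held 0.422% in cdc55Δ and 0.635% in WT. The sum was higher by 405 RPKM in WT, and PHO84 alone was higher by 403 RPKM there. These are shares of transcripts and not of carriers in the membrane.

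**Figure D4:**
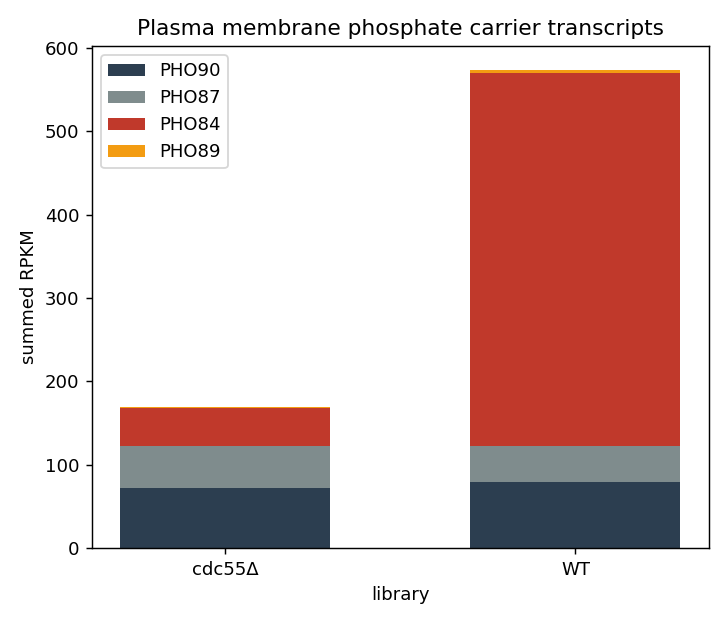
Summed RPKM of PHO90, PHO87, PHO84 and PHO89 in the cdc55Δ library (left) and the WT library (right). The segments of PHO90 and PHO87 add up to 123 RPKM in cdc55Δ and 122 RPKM in WT, and the segment of PHO84 makes nearly the whole difference in height.

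Neighbouring genes were read for signs that a change reached beyond the gene itself. TUB3, an α-tubulin gene downstream of PHO84, had 5775 counts in cdc55Δ and 6615 in WT, a log2 fold change of -0.03 (-0.08 to 0.02). YCK1, downstream of SPL2, had a log2 fold change of 0.24 and ARO9, upstream of it, one of -0.07. PCA1, downstream of PHO89, had one of 0.05. RBK1, downstream of PHO87 on the other strand, had one of 0.42 (0.32 to 0.52), beside 0.30 for PHO87 itself. BUD5, upstream of PHO87, had one of -0.20 (-0.56 to 0.16). The largest change among neighbours that passed the minimum was that of MBB1, upstream of PHO90 on the other strand, with 276 counts in cdc55Δ and 155 in WT, a log2 fold change with an interval from 0.71 to 1.29. Upstream of PHO84, YML122C, a gene for a hypothetical protein in which the PHO84 sequence printed above lies, had 5 counts in cdc55Δ and 13 in WT and did not pass the minimum. YBR296C-A, upstream of PHO89, had 4 counts in each library and did not pass it either. The low levels of PHO84, PHO89 and SPL2 in cdc55Δ were thus not seen at the adjacent genes that passed it. For PHO84 and PHO89 these were the downstream neighbours only, so their upstream side could not be judged.

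An antisense RNA, YNCM0001W, is annotated across the whole of PHO84 on the plus strand from 23564 to 26578, and it was not analysed here. It is the only annotated gene that overlaps any of the 7. The kit keeps strand information, but the strand setting of the counting is not given in the sources used here, so reads of the antisense RNA may be part of the PHO84 counts. Their part in the result was not tested.

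Of 12 other genes that Pho4p is known to control, 8 were at least 2-fold lower in cdc55Δ and 1 was at least 2-fold higher, with a median log2 fold change of -1.24. Over all features that passed the minimum, 1.03% were at least 2-fold lower and 1.91% at least 2-fold higher, with a median of 0.00. The list was written with earlier results of these libraries known, and it does not hold every gene under Pho4p. PHO5, the main repressible acid phosphatase, had 633 counts in cdc55Δ and 2584 in WT, a log2 fold change of -1.86 (-1.99 to -1.73). PHO11 and PHO12, which encode further acid phosphatases, had log2 fold changes of -2.68 and -3.82, but their sequences are nearly identical and reads could be assigned to either. PHM6, whose function is not settled, had 31 counts in cdc55Δ and 334 in WT, a log2 fold change of -3.24 that was the nearest to that of PHO84 among mRNAs outside the 7 genes.

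Of the genes for the vacuolar polyphosphate polymerase complex, VTC1 to VTC4 were lower in cdc55Δ, with smaller changes than PHO84, and VTC5 was not. VTC3 had 4563 counts in cdc55Δ and 17562 in WT, a log2 fold change of -1.78 (-1.82 to -1.73). VTC1 and VTC4 had log2 fold changes of -1.22 and -1.20, and VTC2 had one of -0.39. VTC5, a later-found subunit gene that is on the list of SPX domain genes only, had 2494 counts in cdc55Δ and 2314 in WT, a log2 fold change of 0.28 (0.19 to 0.36). CTF19, which encodes a kinetochore protein and shares its upstream region with VTC3 on the other strand, had one of -1.27. The exception was PHM8, which encodes a nucleotide and lysophosphatidic acid phosphatase, with 2895 counts in cdc55Δ, against 1429 in WT, a log2 fold change of 1.19 (1.10 to 1.28). PHO8, the vacuolar alkaline phosphatase gene, had one of -0.59.

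Of 9 genes that regulate the pathway, none was 2-fold apart, and their median log2 fold change was -0.23. The lowest was PHO81, which encodes the inhibitor of the Pho80p-Pho85p kinase and is itself under Pho4p, with 1867 counts in cdc55Δ and 3836 in WT, a log2 fold change of -0.87 (-0.95 to -0.79). PHO4 had one of -0.41 (-0.52 to -0.31) and its partner PHO2 one of 0.35 (0.19 to 0.51). PHO80 and PHO85 had log2 fold changes of -0.27 and 0.16. KCS1 and VIP1, whose products make inositol pyrophosphates, had ones of -0.03 and -0.23.

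Among SPX domain genes other than the carriers, 2 of 7 were at least 2-fold lower, namely VTC3 and VTC4. Over all features that passed the minimum, the share was 1.03%. SYG1, a relative of phosphate exporters of other species, had a log2 fold change of -0.18 and GDE1, a glycerophosphodiesterase that acts on glycerophosphocholine, one of -0.01. Membership in the SPX family was therefore shared by genes far apart in change, since PHO87 lay at 0.30 and VTC3 at -1.78.

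PHO86, whose product is needed for Pho84p to leave the endoplasmic reticulum, had 3495 counts in cdc55Δ and 5895 in WT, a log2 fold change of -0.59 (-0.65 to -0.53). The other 3 genes on the list labelled export and recycling of Pho84p, PHO88, GTR1 and GTR2, had log2 fold changes between -0.16 and 0.16. Whether GTR1 and GTR2 act in either step was not tested. The mitochondrial phosphate carrier genes MIR1 and PIC2 had ones of 0.10 and 0.30. PMA1, the proton pump gene of the plasma membrane, had 374500 counts in cdc55Δ and 447467 in WT, a log2 fold change of -0.09, its minor relative PMA2 had one of 0.19, and the exchanger gene NHA1 had one of -0.01. The sodium pump genes ENA1, ENA2 and ENA5 lay between -0.39 and -0.12, but they are near-identical copies whose reads cannot be assigned with certainty. None of these 12 genes was 2-fold apart.

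**Figure D5:**
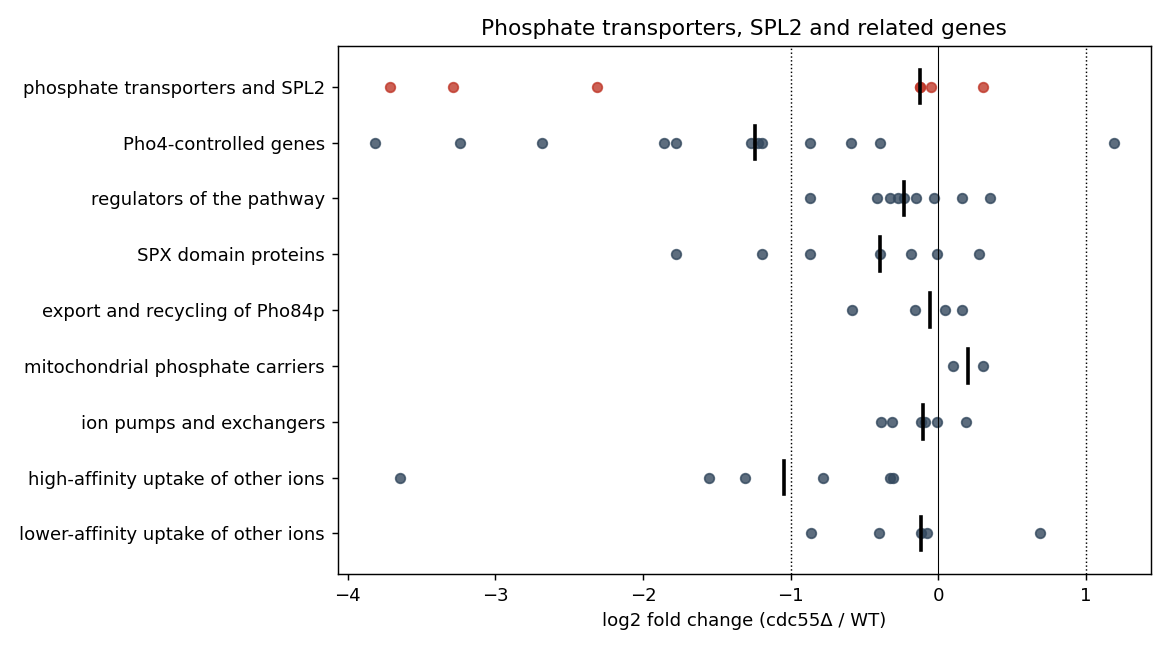
Log2 fold changes of cdc55Δ over WT of the 7 genes (red) and of 8 lists of related genes (dark), with 1 point per gene that passed the count minimum, a black bar at each median and dotted lines at 2-fold. The list of Pho4p-controlled genes has its median at -1.24 and 8 of its 12 points left of the 2-fold line. The lists of regulators, of genes labelled as export and recycling of Pho84p, of mitochondrial carriers and of ion pumps have none there.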

How the data were processed

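RNA was depleted of rRNA, made into directional libraries and read from both ends. The authors used Cutadapt for demultiplexing and hisat2 for mapping to S288C, and deposited raw counts per transcript. The submitters' processing notes name featureCounts, without its settings. RPKM and TPM values, computed by the authors from these counts, were deposited too. The genes were matched to R64 by their RefSeq accessions, all 7 with the listed length.

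TMM factors came from edgeR 4.0.16 under R 4.3.3, and 0.5 was added to each count. A feature passed the minimum with a mean of 50 normalized counts. Intervals are Clopper-Pearson for log2 fold changes, exact Poisson for RPKM, conditional exact for differences between genes and normal on the log scale for ratios (Python 3.11.15, SciPy 1.17.1), all for counting error only, and PCR copies are not independent molecules. With 1 library per strain the quasi-likelihood model of edgeR has no residual degrees of freedom, so no p-value is given. The scaling, the log2 fold changes and the calls past 2-fold were checked on simulated tables. These tables used an assumed spread between libraries, not one measured here. The intervals, the ratios within a library and the sequence searches were not checked in this way.

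The genes and lists were chosen with earlier results of these data known. The genes named are the 7, CDC55, list members, nearest neighbours and the mRNAs closest in log2 fold change to PHO84, PHO90 and GIT1. The alternatives tried were DESeq2 1.42.0 size factors, other scalings, prior counts, count minimums, fold thresholds, units and windows. Protein sequences were not used here.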

Additional observations from a re-analysis of the deposited data

How the results depend on the processing

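The log2 fold changes of the 7 genes stayed within their counting intervals in all 49 values, from 7 alternatives for each of 7 genes. These were DESeq2 size factors, library totals, upper-quartile scaling, TMM over mRNAs, a smaller and a larger prior count and the ratio of deposited RPKM values. The largest shift was 0.07, for SPL2. All 22 counts of the 7 genes and 64 counts of lists past the threshold stayed within 1.5 times, but many of them were 0 under every setting. With a minimum of 200 normalized counts, 2 of the 7 genes were at least 2-fold lower, against 3 with the minimum of 50, because PHO89 did not pass. Raw counts not divided by length changed the ratios within a library. PHO84 over PHO90 became 0.418 in cdc55Δ and 3.75 in WT, PHO84 over PHO87 became 0.556 in cdc55Δ and 6.69 in WT, and PHO84 with PHO89 over PHO87 with PHO90 became 0.242 in cdc55Δ and 2.42 in WT. The side of 1 on which each ratio lay was the same as by RPKM. With 500 bases upstream, or a window ended at the next annotated gene, CACGTG was found for 5 genes, against 6 with 1000 bases, and CACGTT and AGGGG for 2 each, against 5 each. The ended window leaves no bases for PHO84, because the antisense RNA already covers the bases next to its start codon. No paired analysis was possible because each strain has 1 library. A difference between the cultures and an effect of the strain cannot be told apart, and genes with few reads, PHO89, SPL2 and GIT1, have the widest intervals.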

Other observations

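Uptake genes of other ions were read beside the phosphate carriers, from a list written with earlier results known. Among all features that passed the minimum, 1.03% were at least 2-fold lower in cdc55Δ. Of 6 high-affinity genes that passed it, 3 were at least 2-fold lower. They were FET3, the multicopper oxidase of iron uptake, with a log2 fold change of -3.65, FTR1, the iron permease, with -1.56, and ZRT1, the zinc transporter, with -1.31. The copper transporter gene CTR1 and the ammonium permease gene MEP2 had log2 fold changes of -0.33 and -0.31, and the sulfate permease gene SUL2 had one of -0.78. SUL1 had 11 counts in cdc55Δ and 45 in WT and did not pass the minimum. Of 5 genes listed as uptake with lower affinity, none was 2-fold apart. FET4 had a log2 fold change of -0.86 and ZRT2 one of -0.40. SMF1 had one of 0.69, but its place on this list is uncertain, because affinities were not checked. The median of the 5, with SMF1 included, was -0.12. The median of the 6 high-affinity genes was -1.05. Whether the 2 lists differ was not tested.

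Among mRNAs outside the 7 genes, those closest to PHO84 in log2 fold change were PHM6 at -3.24, FET3 at -3.65 and PHO12 at -3.82. Those closest to PHO90 were MRC1, BOI2 and HCH1, each at -0.13, and those closest to GIT1 were ERV14, HSH49 and PDR8, each at -0.12. The likeness is over 2 libraries only. PHO84 had 2 features that passed the minimum inside its interval, itself included, whereas PHO90 had 851 and GIT1 had 4476.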
